A study of Homo sapiens with 8 samples.

Results

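Narrow p53 peaks that lay apart from every other list and outside dense runs made up most of what was listed after Nutlin-3. In U2OS osteosarcoma cells, 11620 of the 18159 Nutlin-3 peaks (64.0%) were narrower than 200 bp, lay more than 1000 bp from every peak listed with doxorubicin, with DMSO or without treatment, and stood outside dense runs. A dense run was 5 or more successive Nutlin-3 peaks with gaps of at most 20 kb. These 11620 narrow isolated new sites are described here, out of 24535 peaks in all 4 lists. They were chosen from the peak positions themselves, so their absence from the other lists is part of the choice and is given without a test.

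The cells were of the established human osteosarcoma line U2OS, which per the labels' protocols expresses its own wild-type p53. They received 10 µM Nutlin-3, 0.6 µg/ml doxorubicin, 0.1% DMSO or no treatment, with a time of 24 h given for each. DMSO is labelled as the control of Nutlin-3, and no treatment as the control of doxorubicin. Formaldehyde-fixed chromatin was pulled down with DO-1, an antibody to p53, and 1 ChIP library per condition gave 1 peak list (18159 peaks with Nutlin-3, 3087 with doxorubicin, 2793 with DMSO and 496 without treatment), so no replicate shows the spread between libraries. The read depth behind the lists is unknown, so depth, enrichment and binding cannot be told apart as sources of a longer list. No test between conditions was made. Intervals given here are 95% intervals for counting error only (exact Clopper-Pearson for shares, exact Poisson for densities) and treat peaks as independent.

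The transcription factor p53 is a tumour suppressor that binds DNA as a tetramer and controls genes of cell cycle arrest, DNA repair and cell death. The ubiquitin ligase MDM2 binds p53 and marks it for degradation. Nutlin-3 is a small molecule that occupies the p53 pocket of MDM2 and so lets p53 accumulate without DNA breaks, whereas doxorubicin traps topoisomerase II on DNA and causes such breaks. In ChIP-seq, a peak is a stretch where fragments bound by the antibody pile up, and the lists hold only the position of each stretch. Positions are on the human build hg18, as deposited. Genes, p53 motifs and base sequences of these sites were not analysed here.

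The rule removed peaks mainly by distance. Of the 18159 Nutlin-3 peaks, 16785 (92.4%) were narrower than 200 bp. Among those, 4116 were left out because a peak of another list shared a base with them (2514) or lay within 1000 bp (1602), and a further 1049 lay in dense runs. As background, 74.8% of all Nutlin-3 peaks of any width lay more than 1000 bp from every peak of the other lists. By list, 80.9% lay that far from every doxorubicin peak, 81.1% from every DMSO peak and 99.2% from every untreated peak. These shares are the contrast that the choice used, so the count of members is not read against them. The limits of width and of run size cut through well-filled values. There were 344 members of 180 bp, the largest width allowed, against 214 isolated peaks of 200 bp, the first width left out. The limit of distance passed through a sparse range, with 22 members 1020 to 1100 bp from another list and 32 narrow peaks outside dense runs at 900 to 1000 bp. Runs of 4 peaks held 664 members, and runs of 5 held 321 narrow isolated peaks that were left out.

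The members were narrow even within the width allowed. Their median width was 60 bp and together they covered 876 kb. Widths came in steps of 20 bp: 3795 members (32.7%, 31.8 to 33.5) had the smallest listed width of 40 bp and 3576 (30.8%, 29.9 to 31.6) had 60 bp. The next step was a sharp drop, to 1011 members (8.70%) at 80 bp. From there the counts declined slowly, with 839 at 100 bp, 795 at 120 bp, 716 at 140 bp, 544 at 160 bp and 344 at 180 bp. The spectrum thus had a narrow peak at its lower end and a long shoulder, in which 3238 members (27.9%) were 100 to 180 bp wide.

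Peaks of the smallest width took a smaller share of the members than of narrow peaks elsewhere. Of the narrow members, 32.7% were 40 bp wide, against 57.6% (55.5 to 59.7) of the 2193 narrow Nutlin-3 peaks that shared a base with another list. The share was 43.2% (40.4 to 45.9) in the 1279 narrow Nutlin-3 peaks within 1000 bp of another list and 39.7% (37.4 to 42.1) in the 1693 narrow peaks of dense runs. In the other libraries, 49.3% of narrow doxorubicin peaks, 51.3% of narrow DMSO peaks and 51.9% of narrow untreated peaks were 40 bp wide. The intervals of these shares lay above that of the members, but they count single peaks of 1 library each. They do not measure a difference between conditions. The lists of the other libraries were taken whole, with dense runs and shared peaks kept in. Members had nearly as many peaks of 60 bp as of 40 bp, whereas the Nutlin-3 peaks that shared a base with another list had 369 of 60 bp and 1263 of 40 bp. At 100 to 180 bp the shares were 27.9% (27.1 to 28.7) of the members and 22.7% (21.5 to 23.8) of all other narrow Nutlin-3 peaks. Width, distance and dense runs all belong to the rule, so these shares are descriptions.

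**Figure D1:**
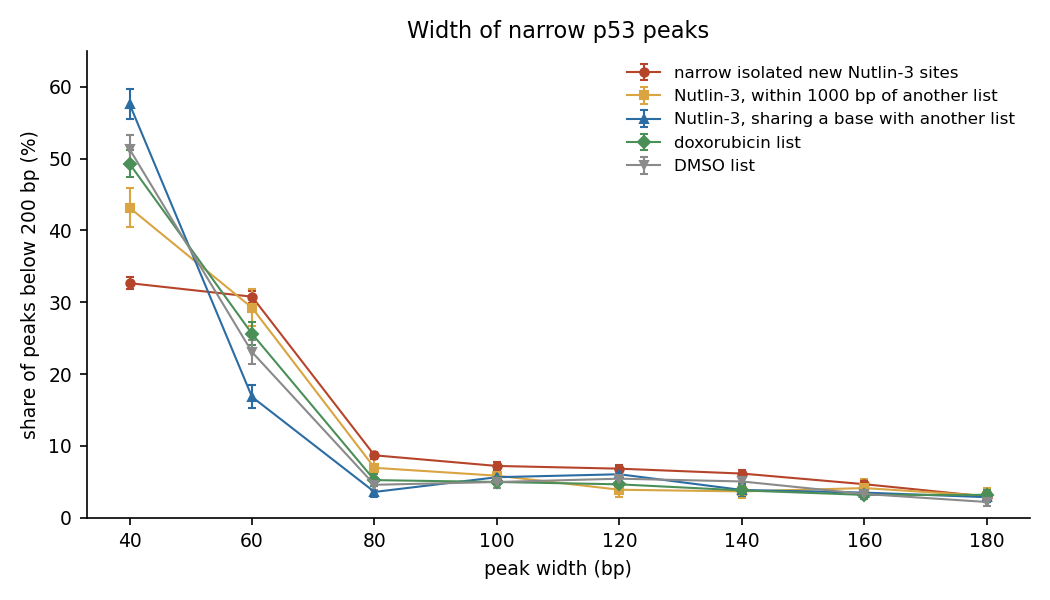
Share of peaks below 200 bp (%) at each width (bp), with exact 95% binomial intervals, for the narrow isolated new Nutlin-3 sites, for 2 other kinds of Nutlin-3 peak and for the doxorubicin and DMSO lists. The members reach 32.7% at 40 bp, below the other lines there, and 30.8% at 60 bp.

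Most members had no close neighbour in their own list. The median gap from a member to the nearest other Nutlin-3 peak was 30.6 kb (29.1 to 31.9), with quartiles at 5.6 and 89.2 kb and a highest value of 3794 kb. With 20 kb as the largest gap that joins peaks, 6778 members (58.3%) stood alone, 2866 were in pairs, 1312 in groups of 3 and 664 in groups of 4. Wide isolated new Nutlin-3 peaks, of 200 bp or more and otherwise chosen alike (801 peaks), had a median gap of 21.6 kb (17.7 to 26.2). Nutlin-3 peaks sharing a base with another list had a median gap of 14.9 kb (12.2 to 18.0). The rule against dense runs acts on this gap for the members, the wide isolated peaks and the peaks shared with another list alike. Another Nutlin-3 peak lay within 1 kb of 1380 members (11.9%), within 5 kb of 2808 (24.2%), within 20 kb of 4842 (41.7%) and within 100 kb of 8964 (77.1%).

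The nearest Nutlin-3 peak was most often another member. This held for 8958 members (77.1%, 76.3 to 77.9), while members made up 64.0% of all other Nutlin-3 peaks. The nearest peak was one that shared a base with another list in 1306 cases (11.2%), a wide isolated new peak in 639 (5.50%), a peak within 1000 bp of another list in 578 (4.97%) and a peak in a dense run in 139 (1.2%). Peaks in dense runs made up 10.5% of the list, and a member cannot lie within 20 kb of one by construction. Members are also kept more than 1000 bp from every peak of the other lists. The 64.0% counts all of these peaks, so part of the difference between 77.1% and 64.0% is set by the rule. The median gap was shorter at the largest widths. It was 30.2 kb (28.0 to 33.2) for members of 40 bp and 33.7 kb (31.0 to 36.6) for those of 60 bp. At 160 bp it was 23.2 kb (17.8 to 29.3) and at 180 bp 23.9 kb (17.6 to 30.4).

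At short range the gaps between members were not spread evenly. Among 8744 pairs of successive members with no Nutlin-3 peak between them, only 4 had a gap of 120 bp or less, and the smallest gap was 80 bp. From 140 to 240 bp there were 257 pairs, or 42.8 for each step of 20 bp. The count per step was 17.4 from 260 to 400 bp, 10.4 from 420 to 600 bp, 7.70 from 620 to 1000 bp, 4.66 from 1020 to 2000 bp and 2.66 from 2020 to 5000 bp. The most frequent gap was 180 bp, with 53 pairs. Such short gaps were seen in every list: up to 400 bp, 4.57% of member pairs fell in this range, against 5.52% of doxorubicin pairs, 6.57% of DMSO pairs and 6.57% of untreated pairs. The smallest gap was 180 bp with doxorubicin, 120 bp with DMSO and 180 bp without treatment. Among the Nutlin-3 pairs in which at least 1 peak was no member, 13.8% had a gap of up to 400 bp, and the most frequent gap was 240 bp. The rule places dense runs and peaks within 1000 bp of another list among these pairs. Pairs of the other lists were taken over all their peaks, with dense runs kept in. The shares are therefore descriptions, and the rule sets part of their difference.

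**Figure D2:**
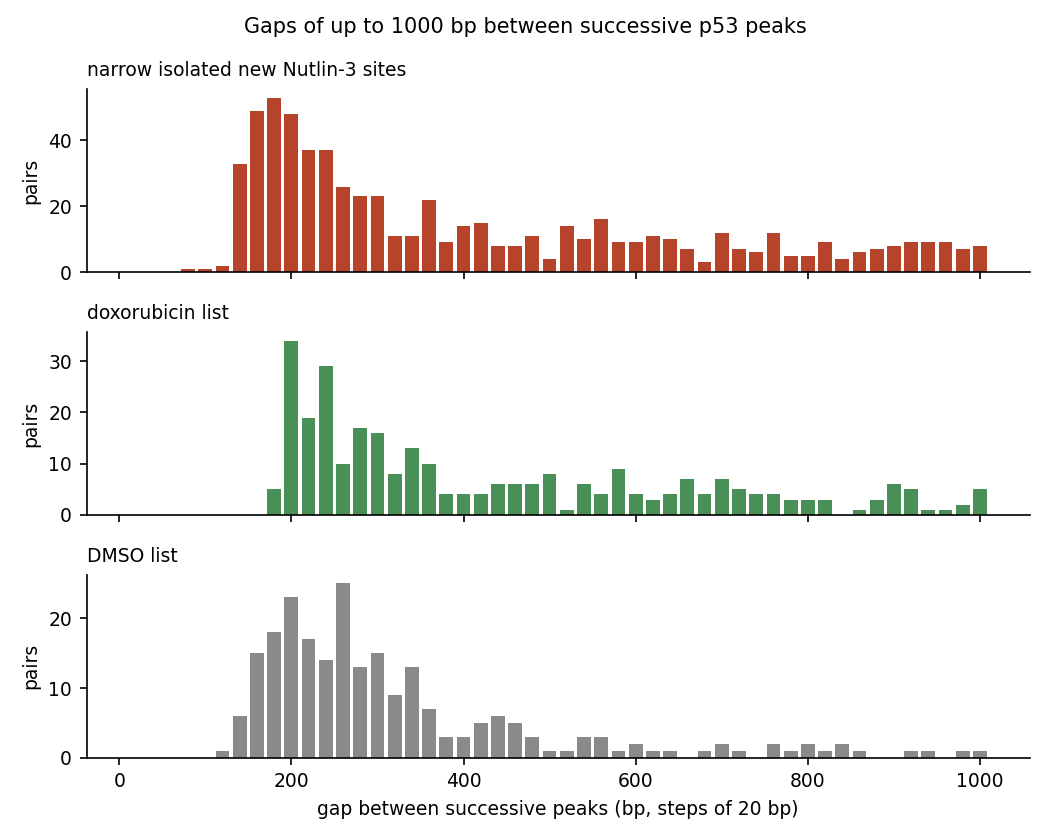
Number of pairs of successive peaks at each gap of up to 1000 bp (bp, steps of 20 bp), for the narrow isolated new Nutlin-3 sites and for all peaks of the doxorubicin and DMSO lists. The member pairs are most frequent at 180 bp, and only 4 have a gap of 120 bp or less.

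There were 400 pairs with a gap of up to 400 bp, made of 776 members (6.68%), of which 24 belonged to 2 pairs. Their outer span, from the start of the first peak to the end of the second, ran from 240 to 700 bp with a median of 360 bp. All 400 spans therefore exceeded the width limit of 200 bp that each peak met by itself. In 181 pairs (45.3%) both peaks were 40 or 60 bp wide, and in 34 both were 100 bp or wider. The share of 40 bp peaks was 35.7% (32.3 to 39.2) in the members of these pairs and 32.4% (31.6 to 33.3) in the other members. The 4 closest pairs, of which the last 2 tied, held mostly broader peaks. On chromosome 9, a peak of 100 bp from 131136271 to 131136371 was followed after 80 bp by a peak of 120 bp from 131136451 to 131136571. The next closest was on chromosome 10, with peaks of 140 and 120 bp and a gap of 100 bp from 59865131 to 59865231. Gaps of 120 bp were found on chromosome 17 from 45610691 to 45610811, between peaks of 100 and 120 bp, and on chromosome 18 from 8790811 to 8790931, between peaks of 40 and 100 bp. Whether such a pair marks 1 bound stretch or more cannot be told apart from positions alone.

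The members lay far from sites of the other libraries as a rule. The median distance to the nearest peak of any other list was 198 kb (192 to 204), with quartiles at 73.4 and 452 kb. It was 315 kb to the nearest doxorubicin peak, 303 kb to the nearest DMSO peak and 5952 kb to the nearest untreated peak, in a list of 496 peaks. The nearest peak was a DMSO peak for 5276 members (45.4%), a doxorubicin peak for 4635 (39.9%) and an untreated peak for 723 (6.22%), with 986 ties. DMSO made up 43.8% of the peaks in these 3 lists, doxorubicin 48.4% and no treatment 7.78%. The members farthest from any other list were all on chromosome X. The first, of 60 bp, ran from 23829171 to 23829231, 6353 kb from the nearest peak of another list. The next ran from 23732211 to 23732311 (100 bp, 6256 kb away) and from 144960511 to 144960651 (140 bp, 5089 kb away). The last of these was also 3794 kb from any other Nutlin-3 peak. The 3 members of 180 bp that lay farthest from another Nutlin-3 peak were on chromosome 9 from 85104431 to 85104611 (704 kb), on chromosome 4 from 17124231 to 17124411 (631 kb) and on chromosome X from 149607951 to 149608131 (611 kb).

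Beyond the limit of 1000 bp, members were still denser near sites of the other libraries. At 1 to 2 kb from the nearest peak of another list there were 140 members, or 17.5 per Mb of genome at that distance (14.8 to 20.7). The density was 10.4 per Mb at 2 to 5 kb (9.10 to 11.8), 6.63 at 5 to 10 kb (5.82 to 7.51) and 5.44 at 10 to 20 kb (4.91 to 6.01). It then stayed level, at 5.79 per Mb from 20 to 50 kb and 5.67 from 50 to 100 kb. The lowest densities were at the greatest distances, 4.28 per Mb from 100 to 500 kb and 2.33 (2.24 to 2.42) beyond 500 kb. Inside the limit, where a narrow peak is by definition no member, the 1279 narrow Nutlin-3 peaks outside dense runs that shared no base with another list reached 151 per Mb. The 2193 narrow peaks that did share a base are not in that density. The decline was thus uneven, with a steep part up to 10 kb, a plateau from 10 to 100 kb and a further fall beyond. Long stretches with no peak in any list counted as genome length here.

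Density was also higher near than far around each library taken by itself. Around DMSO peaks the density was 19.2 per Mb (15.5 to 23.4) at 1 to 2 kb and 2.66 beyond 500 kb. Around doxorubicin peaks it was 14.8 per Mb (11.8 to 18.5) and 2.85. Around untreated peaks, with 11 members at 1 to 2 kb, it was 14.7 per Mb (7.34 to 26.3) and 3.59. Wide isolated new Nutlin-3 peaks had a density of 1.63 per Mb (0.868 to 2.79) at 1 to 2 kb from any other list, 1.04 at 2 to 5 kb, 0.395 at 10 to 20 kb and 0.143 beyond 500 kb. Members of different width did not differ much in this distance: 8.48% of 40 bp members, 8.70% of 60 bp members and 9.30% of 180 bp members lay within 20 kb of another list, with overlapping intervals. The highest share was at 160 bp, with 11.9% (9.34 to 15.0).

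**Figure D3:**
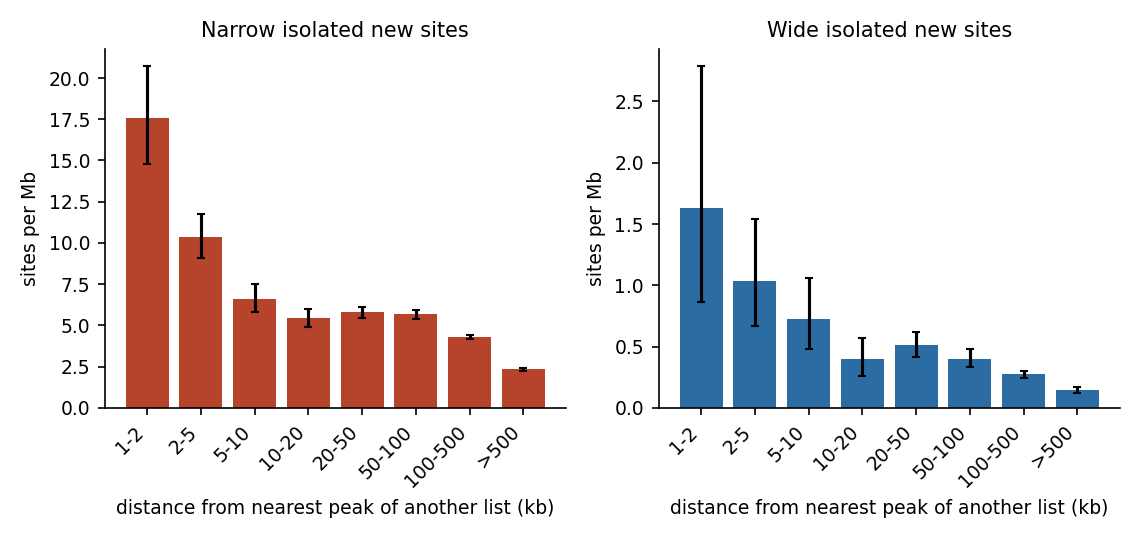
Sites per Mb of genome at each distance (kb) from the nearest peak of another list, for the narrow (left) and the wide (right) isolated new Nutlin-3 sites, with exact 95% Poisson intervals. Density of the narrow sites is 17.5 per Mb at 1 to 2 kb and 2.33 per Mb beyond 500 kb.

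Chromosomes differed in how densely they carried the members. Over all chromosomes there were 3.90 members per Mb (3.83 to 3.97) of the span between the first and the last peak in any list. The highest density was on chromosome 22, with 247 members or 7.08 per Mb (6.22 to 8.02), 1.81 times that of all chromosomes together. Chromosome 20 followed with 385 members or 6.19 per Mb (5.59 to 6.84), and chromosome 17 with 448 members or 5.74 per Mb (5.22 to 6.29). The intervals of these neighbours in the order overlapped. With runs of gaps up to 50 kb left out in place of 20 kb, chromosome 17 came first, so the lead of chromosome 22 depended on how runs were defined. The lowest were chromosome Y with 0 members, chromosome X with 164 members or 1.06 per Mb (0.905 to 1.24), and chromosome 13 with 236 members or 2.47 per Mb (2.16 to 2.81). Chromosome Y held 0 DMSO peaks as well, and whether these cells carry that chromosome was not tested. Its span of 46.8 Mb counts in the density over all chromosomes. Chromosome 21 had 2.79 per Mb (2.28 to 3.39), whose interval overlapped that of chromosome 13. Among autosomes the highest density was 2.87 times the lowest.

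Set against the DMSO list, chromosomes differed less than in density. There were 4.16 members for each DMSO peak over all chromosomes. Chromosome 4 had the most, 4.95, chromosome 22 had 4.94 and chromosome 20 had 4.87, and the fewest were 2.80 on chromosome 19 and 2.83 on chromosome 21. On both of the last, members were sparser than DMSO peaks relative to all chromosomes: 0.911 times for members and 1.35 times for DMSO peaks on chromosome 19, and 0.715 times and 1.05 times on chromosome 21. On chromosome X both were low, 0.272 times for members and 0.331 times for DMSO peaks. The Spearman correlation between members and DMSO peaks per Mb was 0.69 over 23 chromosomes (Y left out). It was 0.50 between members and doxorubicin peaks and 0.84 between members and all other Nutlin-3 peaks. These are descriptions over chromosomes that share their mappable length between libraries. The share of 40 bp peaks ranged only from 27.8% on chromosome 9 to 37.9% on chromosome 19, and the median gap to the nearest Nutlin-3 peak from 19.0 kb on chromosome 22 to 112 kb on chromosome X.

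**Figure D4:**
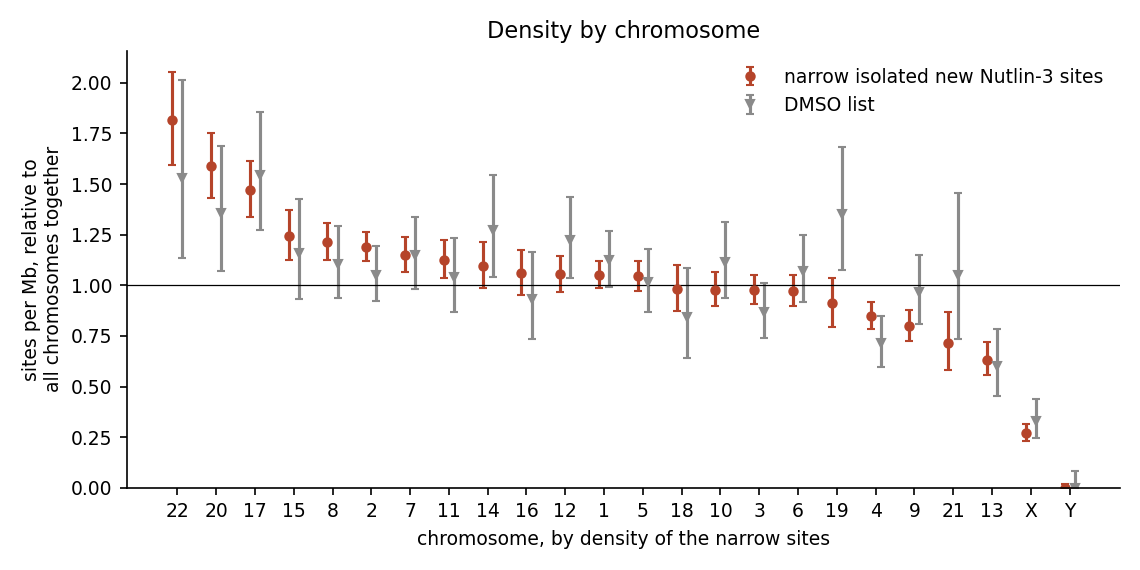
Sites per Mb on each chromosome divided by the value of all chromosomes together, for the narrow isolated new Nutlin-3 sites and for the DMSO list, ordered by the density of the members and with exact 95% Poisson intervals. Chromosomes 22, 20 and 17 are highest for the members, and chromosome 19 has 0.911 for the members and 1.35 for DMSO.

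The ends of the spans held a slightly larger share of the members than of the length. A span ends at its first or last listed peak, which can lie far from the chromosome end. On chromosome 13 the span began at 18554331. The outer 5 Mb at each end of the spans held 1018 members (8.76%, 8.25 to 9.29) and 8.06% of the length. The same stretches held 8.49% of wide isolated new peaks, 10.2% (8.99 to 11.4) of Nutlin-3 peaks sharing a base with another list and 11.9% (10.4 to 13.4) of peaks in dense runs. The longest stretch without a member was chromosome Y from 10629111 to 57432231, which held 104 doxorubicin, 25 untreated, 7 other Nutlin-3 and 0 DMSO peaks. The next ran on chromosome 9 from 38672951 to 70605971 (31.9 Mb, with 3 other Nutlin-3, 12 doxorubicin, 1 DMSO and 6 untreated peaks). The one after it ran on chromosome 1 from 119991131 to 143698291 (23.7 Mb, with 10 other Nutlin-3, 24 doxorubicin, 3 DMSO and 8 untreated peaks). Much of each stretch held no peak in any list. Such an empty interval took up 30.0 Mb on chromosome Y, 27.5 Mb on chromosome 9 and 20.3 Mb on chromosome 1.

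Along the chromosomes the members were spread unevenly. In windows of 5 Mb the mean was 18.9 members and the median 18, over 614 windows, of which 30 held none. The variance over windows was 7.27 times the mean, against 1 for counts spread at random at even density. The same ratio was 8.65 for all other Nutlin-3 peaks, 2.69 for DMSO, 5.83 for doxorubicin and 10.3 for no treatment. Uneven spread was thus not particular to the members, and the mean counts differed between these sets. Windows with no peak in any list were counted too. Of the 3002 windows of 1 Mb, the fullest 301 held 29.0% of the members (28.2 to 29.8). Counts of neighbouring 5 Mb windows had a Spearman correlation of 0.51 over 590 pairs of windows. The unevenness was shared by members of different width. The Spearman correlation over the 614 windows was 0.66 between counts of 40 bp and 60 bp members, 0.68 between 40 bp and 80 to 180 bp, and 0.70 between 60 bp and 80 to 180 bp. Windows of the same library share its depth and their mappable length, neither of which is in the lists.

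The regional counts ran alongside those of the other libraries in part. Over the 614 windows, the Spearman correlation between members and DMSO peaks was 0.66, between members and doxorubicin peaks 0.48 and between members and untreated peaks 0.22. Between members and all other Nutlin-3 peaks it was 0.72. The untreated list had a mean of only 0.788 peaks per window, so these values do not rank the libraries. The 65 windows without a DMSO peak had a median of 2 members and a highest of 24. They include windows with no peak in any list and the windows of chromosome Y, which held 0 members. Such windows enter both this median and the correlations. The 58 windows with 10 or more DMSO peaks had a median of 34, a lowest of 11 and a highest of 60. In between, the median was 11 members with 1 to 2 DMSO peaks, 18 with 3 to 4, 21 with 5 to 6 and 24 with 7 to 9. The member-rich windows without a DMSO peak were on chromosome 4 from 180000001 to 185000000 (24 members, 1 doxorubicin peak), on chromosome 8 from 45000001 to 50000000 (20 members, 3 doxorubicin peaks) and on chromosome 17 from 5000001 to 10000000 (18 members, 2 doxorubicin peaks). These 3 were chosen after their values were seen.

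**Figure D5:**
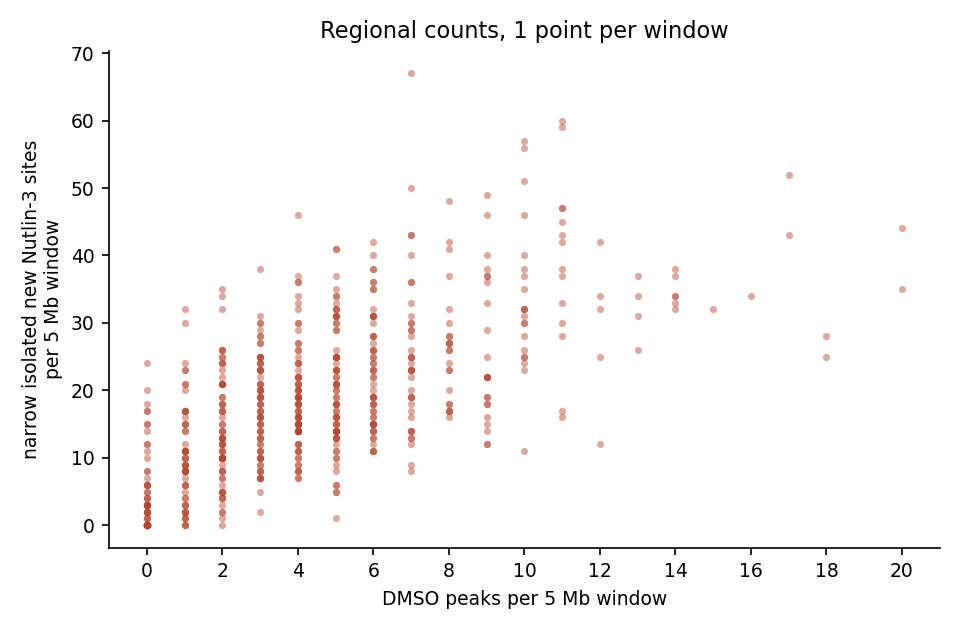
Narrow isolated new Nutlin-3 sites against DMSO peaks, 1 point for each of 614 windows of 5 Mb. The fullest window has 67 members beside 7 DMSO peaks, and the 65 windows without a DMSO peak reach 24 members.

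Most of the 5 fullest windows lay on the far part of chromosome 8. The window from 125000001 to 130000000 held 67 members, 3.54 times the mean window, and the next window on that chromosome, from 130000001 to 135000000, held 57. Another, from 140000001 to 145000000, held 59. The 2 others among the 5 fullest were on chromosome 17 from 35000001 to 40000000, with 60 members, and on chromosome 20 from 45000001 to 50000000, with 56. The intervals of the 5 counts overlapped (51.9 to 85.1 for the fullest). In the fullest window the count was 3.54 times the window mean for members, 2.82 times for all other Nutlin-3 peaks (30 peaks) and 7.67 times for the wide isolated new peaks among them (10 peaks). It was 1.39 times the mean for doxorubicin (7 peaks), 1.54 times for DMSO (7 peaks) and 7.61 times for no treatment (6 peaks). The excess there was thus not limited to the members, and the wide and untreated counts stood further above their means, at few peaks each. On chromosome 17 the count was 3.17 times the mean for members, 3.19 times for other Nutlin-3 peaks, 2.39 times for doxorubicin and 2.42 times for DMSO, with 0 untreated peaks. On chromosome 20 it was 2.96 times the mean for members and 6.01 times for other Nutlin-3 peaks. The other Nutlin-3 peaks include those of dense runs, which the rule takes out of the members, so a window with dense runs loses members and gains other peaks by construction.

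In some windows nearly all Nutlin-3 peaks were members. Windows with at least 10 members were ranked by members over other Nutlin-3 peaks, which the rule itself separates, so the counts are given without a ratio. On chromosome 3 from 65000001 to 70000000 there were 17 members and 0 other peaks of any of the 4 lists. On chromosome 8 from 45000001 to 50000000 there were 20 members beside 1 other Nutlin-3, 3 doxorubicin, 0 DMSO and 2 untreated peaks. On chromosome 4 from 175000001 to 180000000 there were 15 members beside 1 other Nutlin-3, 1 doxorubicin, 0 DMSO and 0 untreated peaks. A further window on chromosome 8, from 85000001 to 90000000, held 14 members beside 1 other Nutlin-3, 0 doxorubicin, 0 DMSO and 1 untreated peak. On chromosome 11 from 125000001 to 130000000 there were 26 members beside 2 other Nutlin-3, 2 doxorubicin, 2 DMSO and 0 untreated peaks. These 5 are the extremes of that ranking among the 614 windows.

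At the finer scale of 1 Mb, the fullest window was on chromosome 12 from 6000001 to 7000000. It held 23 members (14.6 to 34.5) against a mean of 3.87, with 7 other Nutlin-3, 1 doxorubicin and 3 DMSO peaks. The members there lay between 6048971 and 6996611 with a median gap of 38.6 kb, and 6 were 40 bp, 6 were 60 bp and 11 were 80 to 180 bp wide. On chromosome 17 from 36000001 to 37000000 there were 20 members and 0 other Nutlin-3, doxorubicin and DMSO peaks. They were spread from 36057711 to 36958911 with a median gap of 25.4 kb, in runs of at most 3 peaks, and the nearest peak of another list was 72.1 kb away. On chromosome 2 from 235000001 to 236000000 there were 20 members beside 4 doxorubicin and 4 DMSO peaks, and 9 of the 20 were 40 bp wide. Chromosome 18 from 3000001 to 4000000 held 20 members as well, beside 24 other Nutlin-3, 2 doxorubicin and 2 DMSO peaks. These 1 Mb windows were chosen after their values were seen.

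Shares of the smallest width were also counted by region. Over the 265 windows of 5 Mb with at least 20 members, the share of 40 bp members had a median of 32.5%. The lowest was 8.0% (2 of 25 members, 0.984 to 26.0) on chromosome 1 from 5000001 to 10000000. The highest was 75% (15 of 20 members, 50.9 to 91.3) on chromosome X from 40000001 to 45000000. These 2 windows are extremes of the 265, chosen after their values were seen, and whether the shares vary by more than counting error was not tested.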

How the data were processed

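The authors deposited 1 list of p53 ChIP-seq peaks for each of the 4 ChIP libraries, with a chromosome, a start and an end and no score, height or other signal. The submitters' processing notes name hg18, CASAVA and Bowtie 0.12.2; what each did, and the peak caller and its threshold, is not given in the sources used. The series text names input libraries as controls, which were not analysed here. All 24535 widths were multiples of 20 bp, and whether starts count from 0 or 1 is not stated.

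Distances are gaps between peak edges, with ends taken to lie outside the peak. Windows start at multiples of their size and count peaks by midpoint; chromosome M was left out of spans and windows. Values were computed with Python 3.11.15, numpy 2.4.6, scipy 1.17.1 and pandas 2.3.3. Medians have binomial order-statistic intervals. The code recovered the class of 360 of 360 planted peaks in simulated data. The sites and measures were chosen with earlier results of these data known. Windows and single sites were named by rank (fullest, closest, farthest, widest), except where stated. Reference tables were of another build and were not used.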

Additional observations from a re-analysis of the deposited data

How the results depend on the processing

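No paired analysis was possible because each condition had 1 library. Leaving out a replicate and a stricter score could not be run; leaving out the smallest width stood in for the latter. Of 154 alternatives, 102 stayed within the interval (or within 1.5 times, for the number of sites) and 52 moved, 30 up and 22 down. The number of sites did not move by over 1.5 times in any of its 13 alternatives.

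The share of the Nutlin-3 list in the class was 46.2% for widths below 100 bp and 67.0% below 300 bp. With no shared base as the only limit of distance, and width and runs limited as before, it was 71.0%. It was 64.9% beyond 500 bp, 61.9% beyond 5000 bp and 69.8% with dense runs kept in. Without runs of 3 or more peaks it was 53.1%, and 55.5% without runs joined by gaps of up to 50 kb. It was 43.1% without 40 bp peaks, 66.7% after merging Nutlin-3 peaks within 500 bp and 68.6% without the doxorubicin list. The share of 40 bp members was 45.3%, 31.2% and 33.7% in the first 3 of these settings, 33.6% without the doxorubicin list and 0% without 40 bp peaks, where the median width was 80 bp.

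The median gap to another Nutlin-3 peak was 32.2 kb for widths below 100 bp, 25.6 kb with no shared base, 32.9 kb beyond 5000 bp, 24.5 kb with dense runs, 44.2 kb without runs of 3, 39.98 kb without runs of 50 kb gaps and 35.7 kb after merging. The share with a Nutlin-3 peak within 5 kb was 29.3% with no shared base, 25.1% beyond 500 bp, 22.1% beyond 5000 bp, 28.4% with dense runs, 15.8% without runs of 3, 21.4% without runs of 50 kb gaps, 18.2% after merging and 24.97% without doxorubicin; within 20 kb it was 41.7%. The median distance to another list was 166 kb with no shared base, 209 kb beyond 5000 bp, 179 kb with dense runs, 222 kb without runs of 3, 230.4 kb without runs of 50 kb gaps, 212 kb without the untreated list and 272 kb without doxorubicin.

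The highest chromosome's relative density was 1.58 without runs of 3 and 1.44 (chromosome 17) without runs of 50 kb gaps. The fullest 10% of 1 Mb windows held 31.4% with dense runs, 27.4% without runs of 3 and 27.4% without runs of 50 kb gaps, 30.9% without 40 bp peaks and 27.7% on autosomes, and of 2 Mb windows 25.4%. The fullest 2 Mb window had 4.68 times the mean. The outer 2 Mb held 3.59% of the members and 3.22% of the length, and the outer 10 Mb held 17.5% and 16.1%. Density at 1 to 2 kb from another list was 7.54 times that beyond 500 kb, and 11.2 times with dense runs kept in, an alternative added after seeing the data. The cause of these moves was not tested, beyond what each setting removes or adds by construction.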
